A study of Mus musculus with 19 samples.

Results

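The genes described here are 32 members of the unfolded protein response and the integrated stress response, chosen by symbol and read from 55416 gene lines of the deposited count table by their Ensembl identifiers. They fall into 4 arms: 14 chaperones and foldases of the endoplasmic reticulum (ER), 6 genes of ER-associated degradation, 4 sensors and their transcription factors, and 8 genes of the integrated stress response. All 32 passed the filter on low counts, so each was tested. The members were chosen with earlier results of these data known, so a share of calls over that of all genes is not independent support. The question was how these arms stood in the liver after furosemide-induced pre-renal azotemia (PRA), and whether loss of interleukin-6 changed that.

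Poly(A) RNA of 19 C57BL/6 mouse livers was sequenced in 5 groups. Normal livers (n = 4) came from wild-type (WT) mice that were not injected. WT vehicle (n = 4) and WT PRA (n = 4) mice received 2 intraperitoneal injections 3 hours apart, of vehicle or of 4 mg furosemide each, and livers were taken 6 hours after the first. IL-6 -/- mice (knockout, KO) received the same vehicle (n = 4) or furosemide (n = 3) injections. Furosemide is a loop diuretic, and pre-renal azotemia is a rise of nitrogenous waste in blood through poor perfusion of the kidney. PRA below names the furosemide groups. No blood value was used here, and effects of the drug and of azotemia cannot be told apart. Every group holds the same strain and tissue, and no KO liver was left without injection. The labels give neither age nor sex, and they do not say that replicates were separate animals, so part of the spread behind the p-values may be technical.

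The ER folds secreted and membrane proteins, and hepatocytes carry a heavy load because they make most plasma proteins. When unfolded proteins build up, sensors in the ER membrane respond: IRE1 (gene Ern1) splices Xbp1 mRNA, ATF6 is released by proteolysis in the Golgi, and PERK (gene Eif2ak3) phosphorylates the translation factor eIF2-alpha. XBP1 and ATF6 raise chaperones and degradation factors, whereas eIF2-alpha phosphorylation, which other kinases also perform during amino acid shortage, slows translation and favours ATF4 and its targets. This branch is the integrated stress response.

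The upstream sequences of members with a textbook stress element are shown first, because the elements lay in some arms and were not found in others. RefSeq promoters (GRCm38.p6, a build other than the authors' GRCm39) were found for 28 of the 32 members, and the 250 bases before each start were searched on both strands. The ER stress element, written as CCAAT, 9 bases of any kind, and CCACG, lay in 9 of the 28: Hspa5, Hsp90b1, Dnajc3, Creld2, Pdia6, Calr and Canx among 12 chaperones, and Syvn1 and Derl3 among 5 degradation genes. It was in none of the 3 promoters of sensors and their transcription factors or the 8 of the integrated stress response. Of all 32851 promoters 37 held it (0.113%). The ATF4 element TTGCATCA lay in Herpud1 and Chac1 and in 0.791% of all promoters. Herpud1 also held ER stress element II, which is ATTGG, 1 base and CCACG, a form found in 0.03% of all promoters. Its window ends in CCAAT, 9 bases and CCAC, 1 base short of the ER stress element. Bases past the start were not searched, so Herpud1 was not counted among the 9. In capitals below are both conserved ends of the ER stress elements and the ATF4 element. The 6 shown have the smallest p-values in WT PRA against WT vehicle among the members with an element. Each sequence runs 5′ to 3′ in the direction of the gene.
Herpud1 (chr8:94386179-94386428, plus strand): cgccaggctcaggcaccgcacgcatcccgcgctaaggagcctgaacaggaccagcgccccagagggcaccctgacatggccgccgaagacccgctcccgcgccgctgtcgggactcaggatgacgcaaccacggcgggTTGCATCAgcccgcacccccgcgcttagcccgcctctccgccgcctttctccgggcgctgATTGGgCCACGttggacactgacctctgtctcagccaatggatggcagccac
Hspa5 (chr2:34771840-34772089, plus strand): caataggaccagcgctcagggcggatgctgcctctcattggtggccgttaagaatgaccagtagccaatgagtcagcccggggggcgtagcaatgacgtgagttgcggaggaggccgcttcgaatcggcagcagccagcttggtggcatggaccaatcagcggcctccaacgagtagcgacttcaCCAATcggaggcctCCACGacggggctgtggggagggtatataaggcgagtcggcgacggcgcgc
Dnajc3 (chr14:118937682-118937931, plus strand): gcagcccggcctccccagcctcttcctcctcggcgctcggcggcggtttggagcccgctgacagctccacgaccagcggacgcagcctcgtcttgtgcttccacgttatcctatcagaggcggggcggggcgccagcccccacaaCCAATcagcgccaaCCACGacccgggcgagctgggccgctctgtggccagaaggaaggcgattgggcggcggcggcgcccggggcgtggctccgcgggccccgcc
Chac1 (chr2:119350992-119351241, plus strand): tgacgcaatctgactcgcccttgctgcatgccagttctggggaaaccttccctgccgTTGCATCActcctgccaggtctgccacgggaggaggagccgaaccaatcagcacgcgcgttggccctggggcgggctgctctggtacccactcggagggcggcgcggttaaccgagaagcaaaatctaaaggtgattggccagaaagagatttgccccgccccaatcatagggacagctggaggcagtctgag
Creld2 (chr15:88819396-88819645, plus strand): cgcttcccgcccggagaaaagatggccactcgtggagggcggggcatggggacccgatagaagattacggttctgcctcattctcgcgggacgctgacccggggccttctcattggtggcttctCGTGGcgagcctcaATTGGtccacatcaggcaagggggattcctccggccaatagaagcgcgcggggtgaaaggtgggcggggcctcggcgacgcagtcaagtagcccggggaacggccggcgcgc
Hsp90b1 (chr10:86705445-86705694, minus strand): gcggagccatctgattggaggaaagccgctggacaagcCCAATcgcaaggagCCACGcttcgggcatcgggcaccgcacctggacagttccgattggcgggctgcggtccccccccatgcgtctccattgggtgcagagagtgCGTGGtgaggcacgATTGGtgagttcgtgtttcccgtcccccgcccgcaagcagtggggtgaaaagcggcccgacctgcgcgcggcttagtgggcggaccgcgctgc

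**Figure D1:**
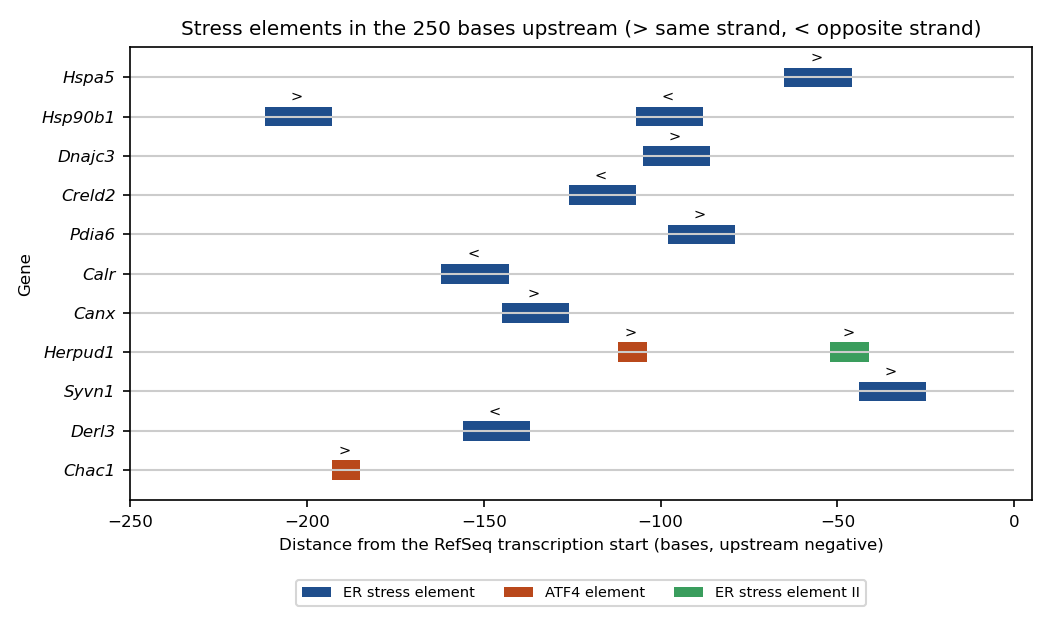
Position of ER stress elements, ER stress element II and the ATF4 element in the 250 bases upstream of the RefSeq start, in bases from the start, for the 11 members with any of them. Hsp90b1 holds 2 ER stress elements, Herpud1 holds the ATF4 element and ER stress element II, and Chac1 holds the ATF4 element.

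A looser ATF4 search with TGATGNAA, whose reverse strand includes TTGCATCA, added Asns and was met in 3.452% of all promoters. The unfolded protein response element TGACGTGG was in no member's window and in 0.563% of all promoters. A match describes letters in this window and is not a measured binding site.

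Libraries held 32073865 to 74041441 counts in genes, and 15570 genes passed the filter. Levels are library-size-scaled counts (CPM) with TMM factors, and a gene passed at an adjusted p at or under 0.05 over all genes. The targeted gene Il6 had 0 to 5 counts in 18 libraries and 16 counts in KO PRA replicate 2, so its counts do not check the genotype. All 10 hepatocyte markers were detected, with a summed level of 81794 to 90752 CPM in normal, 86702 to 109711 in WT vehicle, 121549 to 133329 in WT PRA, 107612 to 114310 in KO vehicle and 126399 to 161093 in KO PRA livers. The 10 neutrophil markers summed to 1.42 to 3.24 CPM in WT vehicle and 11.2 to 13.3 CPM in WT PRA, where 6 of 6 tested were higher. In KO they summed to 4.48 to 6.08 CPM after vehicle and 4.18 to 13.7 CPM after PRA. Of 10 sinusoidal endothelial markers 6 were lower and 1 higher in WT PRA than in WT vehicle, and of 10 stellate cell and fibroblast markers 5 were lower. Plasma and B cell markers, a source of ER genes in other tissues, summed to 11.6 to 17.02 CPM in normal, 5.94 to 14.9 in WT vehicle, 7.24 to 11.9 in WT PRA, 8.88 to 15.7 in KO vehicle and 4.44 to 9.28 CPM in KO PRA livers. Of 10 of them tested, 5 were lower and 1 higher in KO PRA than in KO vehicle, 2 were lower and 1 higher in WT PRA than in WT vehicle, and 5 were lower in WT PRA than in normal livers. The part of these shifts in the results below was not tested, and in whole liver a change in the number of cells of a type and a change in RNA per cell cannot be told apart.

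Per kilobase of exon, Calr was the most abundant member in every group, at a mean of 339.9 CPM per kilobase in normal livers, followed there by Herpud1 (193), Hspa5 (152), Hsp90b1 (148) and Pdia3 (123). Hspa5 and Hsp90b1 did not differ there beyond their spread. At the other end stood Aldh18a1 (0.27 CPM per kilobase), Derl3 (1.10), Chac1 (1.64) and Asns (1.70), and among the sensors Eif2ak3 was lowest (2.01). The least covered value of any member was Derl3 in WT PRA replicate 3, with 14 counts.

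**Figure D2:**
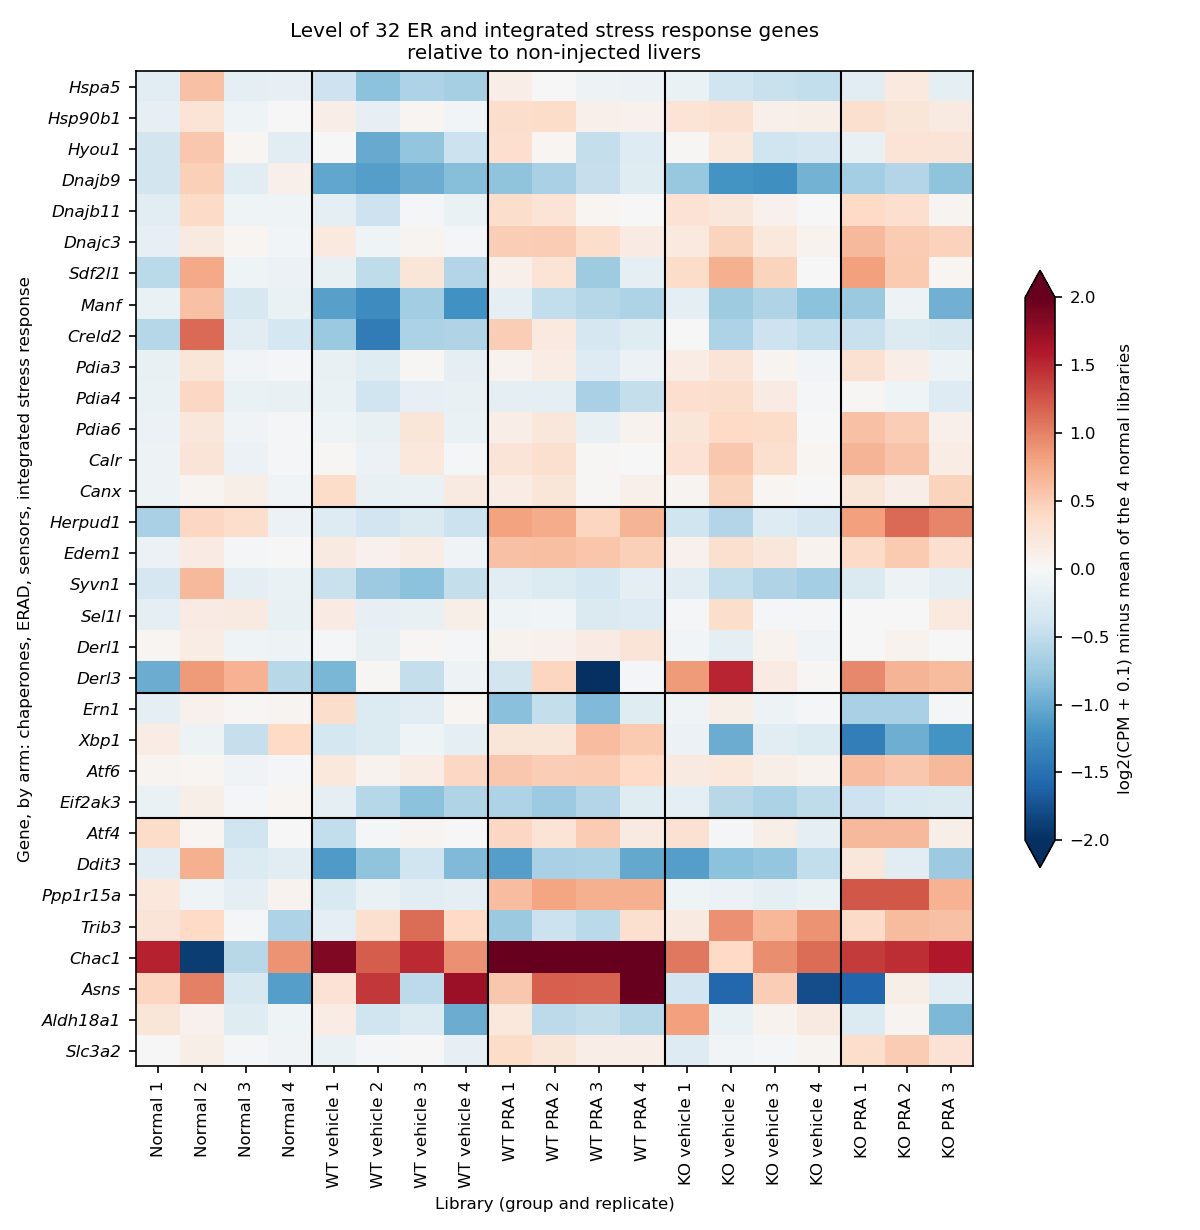
Level of each of the 32 members (rows, by arm) in each of the 19 libraries (columns), as log2(CPM + 0.1) minus the mean of the 4 normal libraries. Colours saturate at 2 in either direction, Normal replicate 2 is high for Hspa5, Manf, Creld2 and Syvn1, and the KO PRA libraries are low for Xbp1.

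In WT livers, part of every arm was higher after PRA, with Ppp1r15a, Herpud1 and Chac1 moving furthest among the members that passed. Of the 32 members, 12 were higher and 1 was lower than after vehicle (40.6%), against 22.1% of all tested genes called, 9.74% higher and 12.3% lower. The median log2 fold change was 0.29 over the members and -0.03 over all genes. Higher were 4 of 14 chaperones, 2 of 6 degradation genes and 4 of 8 integrated stress response genes. Among the 4 sensors and their transcription factors, Xbp1 and Atf6 were higher and Ern1 was lower. In 14 of 32 members every WT PRA library stood above every WT vehicle library, against 11.1% of all genes. In none did all stand below, against 12.1% of all genes. With upper-quartile scaling the share of higher genes among all called moved from 44.1% to 34.04% in WT and from 48.7% to 35.3% in KO, and the members called in WT were 10 higher and 2 lower. Hepatocyte and neutrophil marker sums, given above, were also higher in WT PRA than in WT vehicle, with no overlap. Of the 10 hepatocyte markers 3 were called higher and none lower, with log2 fold changes of 0.06 to 2.16 (median 0.24).

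In KO livers, 5 members passed between PRA and vehicle (15.6%), 4 higher and 1 lower, against 16.3% of all tested genes called (7.96% higher and 8.38% lower), a share near the background. Herpud1, Atf6, Ppp1r15a and Slc3a2 were higher, as they were in WT. Xbp1 was lower, opposite in direction to WT. None of the 14 chaperones passed in KO in edgeR, whereas Dnajc3 passed in DESeq2 and limma voom (adjusted p = 0.0231 to 0.0366). The difference between the genotypes' responses, tested as an interaction, passed for Xbp1 and for no other member, so the larger number of calls in WT is not a tested difference for the other 31. Of all genes, 0.475% passed that test, 0.0385% with a higher and 0.437% with a lower response in KO.

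**Figure D3:**
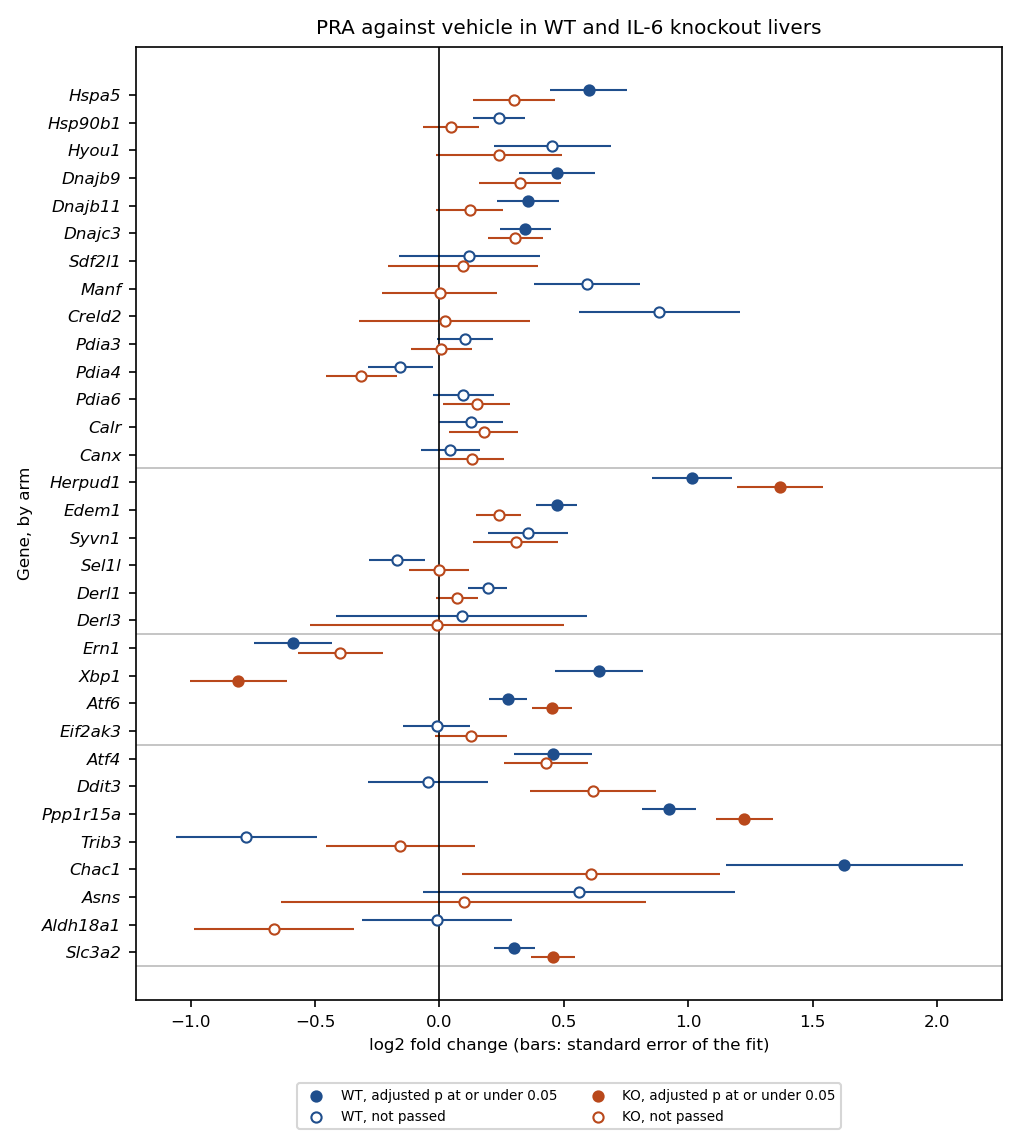
Log2 fold change of PRA against vehicle for the 32 members (rows, by arm) in WT and KO livers, with bars of 1 SE of the edgeR fit. Filled points passed at an adjusted p at or under 0.05: 13 in WT and 5 in KO, with Xbp1 on opposite sides of 0.

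Among the chaperones, Hspa5 encodes BiP, the main Hsp70 of the ER lumen and the regulator that holds the sensors inactive. Hspa5 was measured at 529, 935, 546 and 555 CPM in normal livers, 465, 354, 405 and 394 in WT vehicle and 679.5, 620.4, 578 and 573 in WT PRA. The KO libraries gave 568, 473, 459 and 444 after vehicle and 539.6, 715 and 541 after PRA. All 4 WT PRA libraries lay above all 4 WT vehicle libraries, with a log2 fold change, the scale of all changes below, of 0.60 ± 0.15 SE, adjusted p = 0.0078, whereas the KO groups overlapped (0.30 ± 0.17 SE, adjusted p = 0.235). Normal replicate 2 was far above the other normal livers. The J-domain cochaperones of BiP moved by smaller amounts. The levels of Dnajb9 were 44.6, 80.2, 49.6 and 61.97 CPM in normal livers, 27.9, 26.9, 28.8 and 31.9 in WT vehicle and 33.01, 36.7, 41.6 and 48.9 in WT PRA. After vehicle the KO values were 33.97, 25.2, 24.6 and 29.995, and after PRA 35.7, 38.2 and 32.8. Dnajb9, which delivers unfolded clients and represses IRE1, was higher in WT PRA by 0.47 ± 0.15 SE, adjusted p = 0.0322 without overlap, and 0.32 ± 0.17 SE, adjusted p = 0.199 was its value in KO.

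Dnajb11, a soluble cochaperone that binds nascent chains, was a further member of that group. Dnajb11 was counted at 90.5, 137, 99.2 and 99.7 CPM in normal livers, 91.8, 78.9, 103 and 96.2 in WT vehicle and 134, 127, 108 and 105 in WT PRA. KO livers held 129, 123, 111 and 105 after vehicle and 139.6, 133 and 109 after PRA. The WT groups did not overlap (0.36 ± 0.13 SE, adjusted p = 0.0457), and the KO value was 0.12 ± 0.13 SE, adjusted p = 0.587. Dnajc3, also known as p58IPK, assists BiP and was first described as an inhibitor of eIF2-alpha kinases. Dnajc3 stood at 149, 188, 172 and 160.05 CPM in normal livers, 190.1, 158, 173 and 164 in WT vehicle and 235, 238, 212 and 186 in WT PRA. With vehicle KO livers read 190.5, 228, 193 and 176, and with PRA 261, 238 and 230.5. In WT the fold change was 0.34 ± 0.10 SE, adjusted p = 0.0191 with some overlap. In KO all PRA libraries lay above all vehicle libraries but the edgeR test did not pass (0.30 ± 0.11 SE, adjusted p = 0.0629). The KO value passed without KO vehicle replicate 2 (0.022), and in DESeq2 and limma voom (adjusted p = 0.0231 to 0.0366). Without WT PRA replicate 1 or 2, or WT vehicle replicate 2, the WT call for Dnajc3 was lost (adjusted p = 0.0618, 0.0664 and 0.063). Dnajb9 was lost without WT PRA replicate 3 or 4 or WT vehicle replicate 1, 2 or 3 (0.0595 to 0.118), and Dnajb11 without WT PRA replicate 1 or 2 or WT vehicle replicate 1, 2 or 4 (0.0635 to 0.141).

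Manf, a small ER protein that binds BiP and can be secreted, stood just outside the threshold in WT. Manf was measured at 85.7, 141, 74.7 and 84.9 CPM in normal livers, 43.9, 39.2, 57.6 and 40.5 in WT vehicle and 82.8, 66.7, 63.1 and 60.7 in WT PRA. In KO livers it reached 82.8, 57.1, 61.5 and 53.1 after vehicle and 55.8, 87.4 and 48.02 after PRA. Its WT groups did not overlap (0.59 ± 0.21 SE, adjusted p = 0.0563), and it passed without WT vehicle replicate 3 (adjusted p = 0.0326). In KO the fold change was 0.00 ± 0.23 SE, adjusted p = 0.997. Creld2, an ER protein of the disulfide isomerase type, went from 14.4 to 25.2 CPM in WT vehicle to 30.3 to 53.9 CPM in WT PRA, again without overlap and without passing (0.88 ± 0.32 SE, adjusted p = 0.061). Creld2 did pass in WT in DESeq2, in limma voom and with only the compared groups fitted (adjusted p = 0.0186 to 0.0402). Its KO value was 0.02 ± 0.34 SE, adjusted p = 0.977.

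The disulfide isomerases and the lectin chaperones showed no call in either genotype. The levels of Pdia4 were 164, 237, 164 and 161 CPM in normal livers, 163, 136, 161 and 161 in WT vehicle and 156, 158, 115 and 128 in WT PRA. The KO libraries gave 227, 229, 199.999 and 175 after vehicle and 182, 169 and 150.3 after PRA. Pdia4 was the chaperone with a negative value in both WT (-0.16 ± 0.13 SE, adjusted p = 0.42) and KO (-0.32 ± 0.14 SE, adjusted p = 0.143). Pdia3, Pdia6, Calr and Canx had log2 fold changes of 0.04 to 0.13 in WT and 0.01 to 0.18 in KO, with SE of 0.11 to 0.14. Hsp90b1 (GRP94, the ER Hsp90), Hyou1 (a nucleotide exchange factor of BiP) and Sdf2l1 (a partner of Dnajb11) had WT values of 0.24 ± 0.10, 0.45 ± 0.24 and 0.12 ± 0.28 (SE), and their groups overlapped in both genotypes. Hsp90b1 passed in WT without WT vehicle replicate 1 (adjusted p = 0.0477). Of the 7 chaperones with an ER stress element, Hspa5 and Dnajc3 passed in WT and 5 did not, and of the 2 that passed without one, Dnajb9 and Dnajb11, both had a promoter in the table.

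In the degradation arm, Herpud1 and Edem1 were higher after PRA in WT. Herpud1 is a ubiquitin-like protein of the ER membrane that organises the HRD1 degradation complex. Herpud1 was counted at 276, 574, 549.9 and 398 CPM in normal livers, 360.4, 329.9, 353 and 320.4 in WT vehicle and 757, 726, 583 and 689.9 in WT PRA. After vehicle the KO values were 328, 288, 363 and 343, and after PRA 761, 950.1 and 850.1. Every PRA library lay above every vehicle library in each genotype. The fold was 2.02 times in WT (1.01 ± 0.16 SE, adjusted p = 0.000122) and 2.58 times in KO (1.37 ± 0.17 SE, adjusted p = 1.63e-05), and the genotypes' responses differed by 0.35 ± 0.24 SE, adjusted p = 0.749. Edem1 marks misfolded glycoproteins for removal by trimming their mannose chains. Edem1 stood at 84.5, 103, 90.8 and 91.3 CPM in normal livers, 104, 97.9, 102 and 87.99 in WT vehicle and 139, 139.8, 136 and 129 in WT PRA. KO livers held 98.1, 115, 108 and 96.3 after vehicle and 121, 132 and 116 after PRA. Its groups did not overlap in either genotype, and it passed in WT (0.47 ± 0.08 SE, adjusted p = 0.000328) but not in KO (0.24 ± 0.09 SE, adjusted p = 0.0743). In KO it passed without KO vehicle replicate 2 (adjusted p = 0.0398), and in DESeq2 and limma voom (0.0322 to 0.0354). The difference between the genotypes was -0.23 ± 0.12 SE, adjusted p = 0.616.

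Syvn1 encodes HRD1, the ubiquitin ligase of the complex. Syvn1 was measured at 82.9, 165, 93.2 and 95.8 CPM in normal livers, 76.8, 63.5, 59.6 and 75.8 in WT vehicle and 89.8, 87.2, 82.8 and 93.3 in WT PRA. With vehicle KO livers read 89.4, 74.4, 68.96 and 65.3, and with PRA 86.1, 97.5 and 92.9. WT PRA lay above WT vehicle in all libraries, without passing (0.36 ± 0.16 SE, adjusted p = 0.119). Derl1 belongs to the derlins, which form part of the exit channel. The levels of Derl1 were 104, 112, 95.3 and 93.9 CPM in normal livers, 98.4, 91.1, 102 and 98.9 in WT vehicle and 106, 107, 113 and 120.3 in WT PRA. In KO livers it reached 97.7, 89.5, 106 and 95.9 after vehicle and 101, 106 and 101 after PRA. Its WT groups did not overlap either (0.19 ± 0.08 SE, adjusted p = 0.0806), and the WT value passed in DESeq2 and limma voom (adjusted p = 0.0287 to 0.0304). The KO value of Derl1 was 0.07 ± 0.08 SE, adjusted p = 0.617. Sel1l, the adaptor of HRD1, had -0.17 ± 0.11 in WT and -0.00 ± 0.12 in KO (SE). Derl3 was counted at 0.37 to 5.60 CPM over all 19 libraries and had 0.09 ± 0.50 in WT.

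The sensors and their transcription factors differed among themselves, and Xbp1 was the member on which the genotypes parted. Xbp1 was counted at 215, 180.2, 141 and 255 CPM in normal livers, 151, 159, 182 and 171 in WT vehicle and 229, 228, 298 and 278 in WT PRA. The KO libraries gave 177, 96.5, 167 and 160.3 after vehicle and 74.3, 98.5 and 84.7 after PRA. WT PRA lay above WT vehicle in every library, at 1.56 times its level (0.64 ± 0.18 SE, adjusted p = 0.013). KO PRA was lower than KO vehicle by -0.81 ± 0.19 SE, adjusted p = 0.00713, and the groups overlapped only through KO vehicle replicate 2, without which the value was -0.97. The interaction was -1.45 ± 0.26 SE, adjusted p = 0.0123, and it passed in each of 23 alternative settings other than the test against a 1.5-fold threshold (adjusted p = 0.17). Within PRA, KO livers held 0.33 times the WT level, without overlap (-1.59 ± 0.20 SE, adjusted p = 5.66e-05). After vehicle the 2 genotypes overlapped (-0.14 ± 0.18 SE, adjusted p = 0.996). In the comparison in which Xbp1 fell, 5 of 10 plasma and B cell markers were also lower and 1 was higher, with a median of -1.22. In KO PRA against WT PRA 1 of the 10 was lower and none higher (median 0.07). In WT PRA against WT vehicle 2 were lower and 1 higher (median -0.18). The part of these markers in the Xbp1 result was not tested. These counts are of the whole gene and do not separate spliced from unspliced Xbp1 mRNA, so they give no measure of IRE1 activity.

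Ern1, the kinase and endonuclease that splices Xbp1, was the member that fell in WT. Ern1 stood at 28.003, 33.6, 32.1 and 32.98 CPM in normal livers, 40.3, 26.1, 27.4 and 32.6 in WT vehicle and 17.7, 22.8, 17.02 and 26.6 in WT PRA. After vehicle the KO values were 30.2, 34.2, 29.6 and 30.6, and after PRA 20.1, 20.2 and 30.7. In WT it was -0.59 ± 0.16 SE, adjusted p = 0.0106, with WT PRA replicate 4 inside the vehicle range and the call lost without WT vehicle replicate 1 (adjusted p = 0.0503). In KO it was -0.40 ± 0.17 SE, adjusted p = 0.122, which passed without KO PRA replicate 3 (0.0198). Atf6 was higher after PRA in both genotypes by small amounts. Atf6 was measured at 41.9, 41.3, 38.4 and 39.4 CPM in normal livers, 46.5, 42.1, 44.5 and 53.5 in WT vehicle and 58.6, 56.8, 57.4 and 53.1 in WT PRA. KO livers held 45.6, 46.6, 43.8 and 42.1 after vehicle and 61.6, 58.3 and 62.9 after PRA. The KO groups were separate (0.45 ± 0.08 SE, adjusted p = 0.00056), and in WT vehicle replicate 4 reached the PRA range (0.27 ± 0.08 SE, adjusted p = 0.0116). Without WT vehicle replicate 2 the WT value did not pass (0.0501). Eif2ak3, the gene of PERK, overlapped between all injected groups. The levels of Eif2ak3 were 11.1, 13.2, 11.9 and 12.4 CPM in normal livers, 10.7, 8.13, 6.85 and 7.94 in WT vehicle and 7.87, 7.28, 8.06 and 10.2 in WT PRA. With vehicle KO livers read 10.6, 8.18, 7.79 and 8.49, and with PRA 9.05, 9.84 and 9.85. Its PRA values were -0.01 ± 0.13 SE, adjusted p = 0.965 in WT and 0.13 ± 0.14 SE, adjusted p = 0.595 in KO, and every normal library lay above every injected one.

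**Figure D4:**
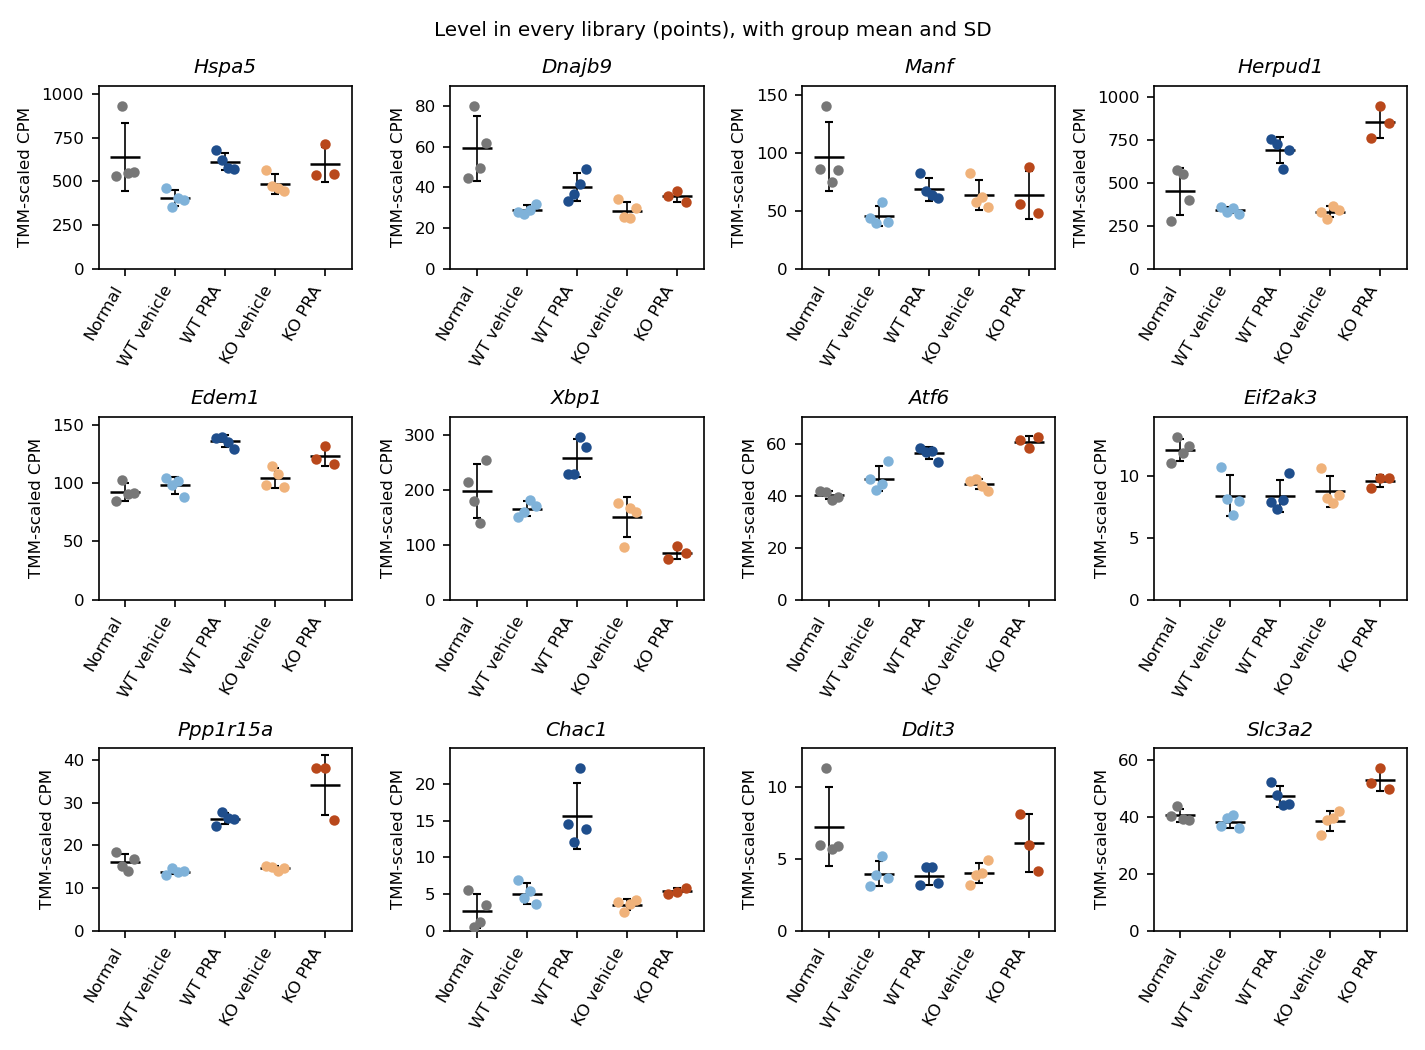
Level in TMM-scaled CPM (linear axes from 0) in every library (points) for 12 members, with the group mean (line) and SD (bar). Herpud1 and Ppp1r15a are higher after PRA in both genotypes, Xbp1 is higher in WT PRA and lower in KO PRA, and Chac1 is separate in WT PRA.

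In the integrated stress response, Ppp1r15a had the smallest p of all members. It encodes GADD34, the phosphatase subunit that reverses eIF2-alpha phosphorylation. Ppp1r15a was counted at 18.5, 15.1, 14.05 and 16.8 CPM in normal livers, 13.01, 14.6, 13.7 and 13.9 in WT vehicle and 24.6, 27.8, 26.3 and 26.2 in WT PRA. In KO livers it reached 15.1, 14.8, 13.9 and 14.6 after vehicle and 38.2, 38.1 and 25.95 after PRA. PRA and vehicle libraries were separate in each genotype, at 1.90 times in WT (0.92 ± 0.11 SE, adjusted p = 3.18e-06) and 2.34 times in KO (1.22 ± 0.11 SE, adjusted p = 4.70e-07). KO PRA against WT PRA was 0.38 ± 0.11 SE, adjusted p = 0.0681, which passed without KO PRA replicate 3 (adjusted p = 0.00353). Slc3a2, the heavy chain of several amino acid transporters, followed the same order at a smaller size. Slc3a2 stood at 40.3, 43.8, 39.2 and 38.8 CPM in normal livers, 36.8, 39.5, 40.8 and 36.2 in WT vehicle and 52.3, 47.7, 44.2 and 44.5 in WT PRA. The KO libraries gave 33.7, 38.9, 39.8 and 42.002 after vehicle and 51.8, 57.4 and 49.7 after PRA. It was higher in WT (0.30 ± 0.08 SE, adjusted p = 0.0119) and in KO (0.46 ± 0.09 SE, adjusted p = 0.00119), again without overlap, and the WT call was lost without WT PRA replicate 1 (0.0531).

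Chac1, an enzyme that degrades glutathione and a target of ATF4 and CHOP, had the largest fold of the members that passed. Chac1 was measured at 5.56, 0.42, 1.23 and 3.54 CPM in normal livers, 6.92, 4.38, 5.36 and 3.56 in WT vehicle and 14.5, 12.04, 22.3 and 13.9 in WT PRA. After vehicle the KO values were 3.96, 2.47, 3.59 and 4.12, and after PRA 5.01, 5.33 and 5.80. WT PRA stood above all other libraries of the series. The WT fold was 3.09 times (1.63 ± 0.48 SE, adjusted p = 0.0225) and the KO value was 0.61 ± 0.52 SE, adjusted p = 0.471, with a difference between genotypes of -1.02 ± 0.70 SE, adjusted p = 0.765. The WT call was lost without WT PRA replicate 3 or WT vehicle replicate 2 or 4 (adjusted p = 0.0657, 0.0586 and 0.0613). The KO value of Chac1 passed when only the compared groups were fitted (0.61, adjusted p = 0.0465). Atf4 itself, whose protein is controlled mainly by translation, was close to the threshold. The levels of Atf4 were 128, 102, 75.9 and 98.5 CPM in normal livers, 70.4, 96.7, 103 and 100.3 in WT vehicle and 133, 121, 142 and 113 in WT PRA. KO livers held 123, 97.5, 108 and 86.7 after vehicle and 156, 156 and 107 after PRA. It was 0.46 ± 0.16 SE, adjusted p = 0.0421 in WT, without overlap, and 0.43 ± 0.17 SE, adjusted p = 0.0903 in KO. The WT call was lost without any of 6 libraries (WT PRA replicates 1, 2 and 3 and WT vehicle replicates 1, 2 and 4), at 0.0522 to 0.114, and the KO value passed without KO PRA replicate 3 (0.03).

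Ddit3, which encodes CHOP, the factor tied to death under prolonged ER stress, did not pass after PRA. Ddit3 was counted at 5.98, 11.4, 5.69 and 5.91 CPM in normal livers, 3.09, 3.90, 5.22 and 3.69 in WT vehicle and 3.16, 4.40, 4.42 and 3.33 in WT PRA. With vehicle KO livers read 3.18, 3.88, 4.01 and 4.90, and with PRA 8.15, 5.99 and 4.16. Its values were -0.04 ± 0.24 SE, adjusted p = 0.917 in WT and 0.62 ± 0.25 SE, adjusted p = 0.107 in KO, and without KO PRA replicate 3 the KO value passed (adjusted p = 0.0421). Trib3, a pseudokinase induced by CHOP, was at 4.28 to 9.08 CPM in WT PRA and 6.33 to 15.9 CPM in WT vehicle (-0.78 ± 0.28 SE, adjusted p = 0.059), and it passed as lower without WT PRA replicate 4 (0.0127) or WT vehicle replicate 1 (0.0232). Asns, asparagine synthetase, ranged from 2.77 to 13.3 CPM in WT vehicle and from 5.90 to 22.4 CPM in WT PRA, and Aldh18a1, the first enzyme of proline synthesis from glutamate, from 0.49 to 1.204 and from 0.69 to 1.26 CPM. Neither passed in WT (0.56 ± 0.63 and -0.01 ± 0.30, SE) or in KO (0.10 ± 0.73 and -0.67 ± 0.32).

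Within PRA, Xbp1 was the 1 member that passed between KO and WT (3.12%), against 3.8% of all genes called and 2.15% called lower. Herpud1, Sel1l, Derl3 and Trib3 lay above and Derl1, Xbp1, Chac1 and Asns below WT PRA in all KO PRA libraries, against 8.48% and 7.26% of all genes that lay above and below. Asns ranged from 1.27 to 4.33 CPM in KO PRA, and its log2 value was -1.99 ± 0.74 SE, adjusted p = 0.176. Chac1 was -1.54 ± 0.53 SE, adjusted p = 0.133, and it passed when only the compared groups were fitted (-1.58, adjusted p = 0.000644). After vehicle no member passed between KO and WT in edgeR, DESeq2 or limma, and 0.0706% of all genes were called, 0.0514% higher and 0.0193% lower. Of the 32 members, 10 had an unadjusted edgeR p under 0.05, against 933 of all 15570 genes. In that comparison 13 of 14 chaperones had a positive value, with a median of 0.28, against 7416 of all 15570 genes. The members share the same libraries and are not replicates, so these counts are no test of a genotype difference. Only Dnajb11 and Pdia4 among the chaperones had groups that did not overlap, each above (1.54% of all genes were above and 1.14% below).

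Part of the set was lower in vehicle-injected than in non-injected WT livers. Between WT vehicle and normal livers 5 of 32 members were lower and none was higher (15.6%), against 2% of all genes called, 1.18% higher and 0.822% lower. Without overlap 7 members lay below and 1 above, as 3.78% and 4.74% of all genes did. The 5 were Hspa5 (-0.67 ± 0.15 SE, adjusted p = 0.0259), Dnajb9 (-1.03 ± 0.15 SE, adjusted p = 0.00178), Manf (-1.09 ± 0.22 SE, adjusted p = 0.0126), Syvn1 (-0.66 ± 0.16 SE, adjusted p = 0.0333) and Eif2ak3 (-0.52 ± 0.13 SE, adjusted p = 0.0404). Their values in every library are given above. Ddit3 (-0.87 ± 0.23 SE, adjusted p = 0.0594) and Creld2 (-0.99 ± 0.32 SE, adjusted p = 0.137) also lay below normal without overlap and did not pass. The integrated stress response genes Chac1 (0.94 ± 0.49) and Atf4 (-0.13 ± 0.16, SE) did not pass.

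These calls rest in part on Normal replicate 2, which was the highest normal library for 13 of the 14 chaperones. Without it Hspa5 (adjusted p = 0.107), Syvn1 (0.105) and Eif2ak3 (0.134) were lost, whereas Dnajb9 and Manf passed in all 16 alternative settings other than the 1.5-fold threshold. Hspa5 was also lost without WT vehicle replicate 2, 3 or 4 (0.0553 to 0.0945), Syvn1 without WT vehicle replicate 2 or 3 (0.0864 to 0.104), and Eif2ak3 without any of 7 of the 8 libraries, WT vehicle replicate 1 being the exception (0.0514 to 0.134). Herpud1 passed as lower without Normal replicate 1 (0.0241), and Ddit3 without WT vehicle replicate 3 (0.0402).

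**Figure D5:**
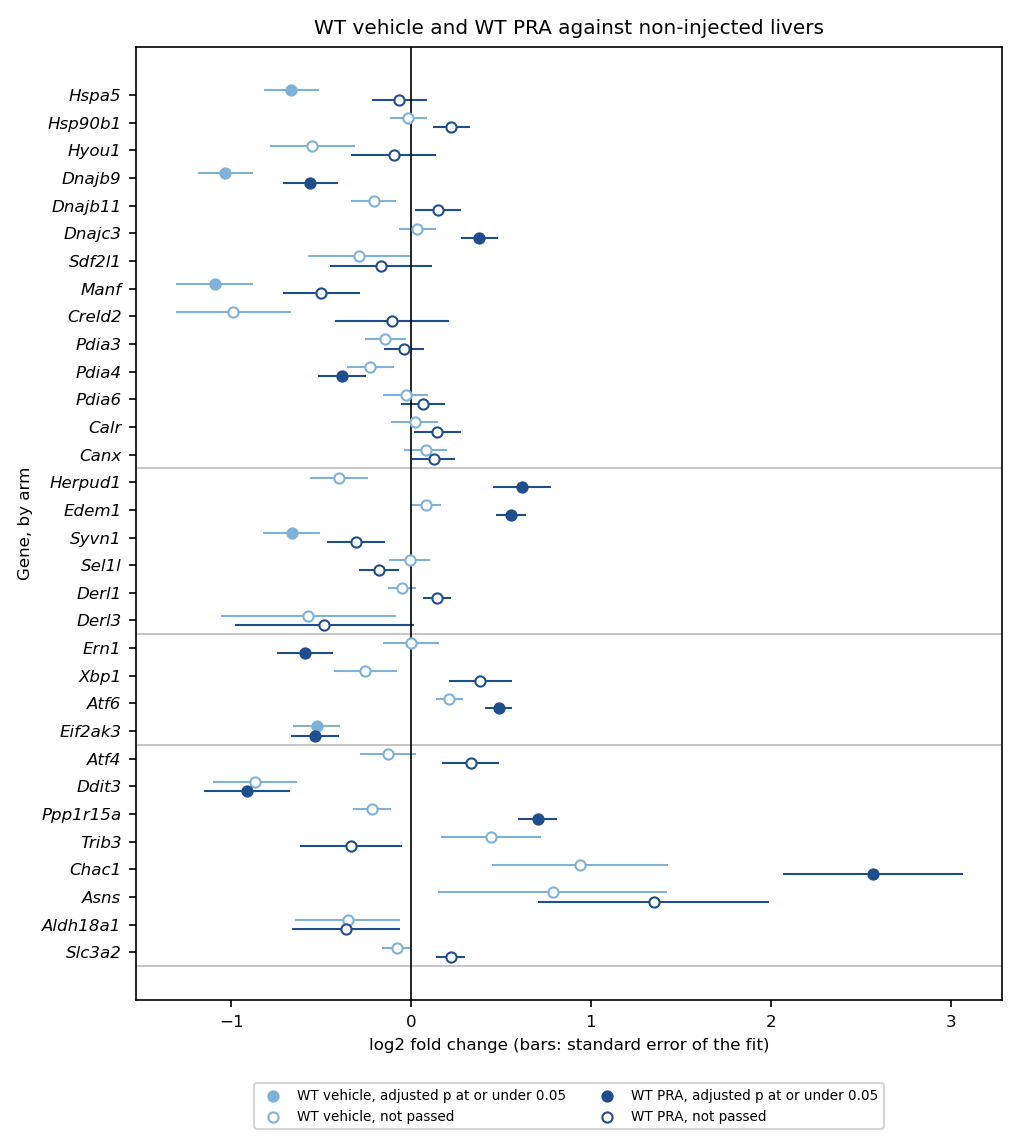
Log2 fold change of WT vehicle and WT PRA against normal livers for the 32 members (rows, by arm), with bars of 1 SE of the edgeR fit. Filled points passed at an adjusted p at or under 0.05: 5 lower for WT vehicle, and 6 higher and 5 lower for WT PRA.

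Against normal livers, WT PRA was higher for some members and lower for others. Of 32 members 6 were higher and 5 lower (34.4%), against 28.4% of all genes called, 13.5% higher and 14.9% lower, and the median was 0.01. Without overlap 6 lay above and 4 below, as 16.7% and 16.9% of all genes did. Higher were Dnajc3, Herpud1 (0.62 ± 0.16), Edem1, Atf6, Ppp1r15a (0.70 ± 0.11) and Chac1 (2.57 ± 0.50, SE). Lower were Dnajb9 (-0.56 ± 0.15), Pdia4, Ern1, Eif2ak3 and Ddit3 (-0.91 ± 0.24). Hspa5 stood at 641 ± 196 CPM in normal, 404 ± 45.9 in WT vehicle and 613 ± 49.3 in WT PRA livers (mean ± SD, n = 4 each), and the last differed from normal by -0.07 ± 0.15 SE, adjusted p = 0.791. The comparison with normal and the comparison with vehicle share the WT PRA libraries, and the latter shares the WT vehicle libraries with the comparison of vehicle and normal. Pdia4 was lost without Normal replicate 2 (adjusted p = 0.177) or WT PRA replicate 3 (0.113) or 4 (0.0854). Atf4 passed as higher without Normal replicate 1 (0.0382), Xbp1 without Normal replicate 4 (0.0343), and Hsp90b1 (0.027) and Slc3a2 (0.0386) without Normal replicate 2.

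The other genes of the pathways were read from 7 lists. Their counts are read against all genes, of which 22.1% were called in WT (9.74% higher and 12.3% lower) and 16.3% in KO (7.96% higher and 8.38% lower). Genes were named by rank in each comparison, so a gene without a value for a genotype was not necessarily unchanged there. Among ATF4 and CHOP targets 6 of 31 were higher and none lower in WT PRA (19.4% called), and 8 and none in KO (25.8%). Slc38a2, a neutral amino acid transporter, rose from 55.01 ± 16.05 to 230.6 ± 31.0 CPM in WT (SD, n = 4 each; 2.07 ± 0.17 SE, adjusted p = 8.59e-08) and by 1.68 ± 0.18 SE, adjusted p = 3.72e-06 in KO. The transcription factors Atf3 (2.48 ± 0.53 SE, adjusted p = 0.00308) and Jdp2 (1.24 ± 0.23 SE, adjusted p = 0.000474) rose in WT. In KO, Jdp2 rose by 1.46 ± 0.24 SE, adjusted p = 0.000265 and Sesn2, a stress-induced inhibitor of mTORC1, by 1.14 ± 0.14 SE, adjusted p = 1.51e-05. Sesn2 was also higher in KO PRA than in WT PRA (0.64 ± 0.14 SE, adjusted p = 0.0114), a call lost without KO PRA replicate 1 or 3 (0.068 and 0.051). Bcl2l11, which encodes the pro-apoptotic protein BIM, was higher there too (0.64 ± 0.18 SE, adjusted p = 0.0489), and passed in 5 of 15 settings other than the 1.5-fold threshold, failing whichever PRA library was left out. Of 14 aminoacyl-tRNA synthetases, which charge tRNAs and include ATF4 targets, 3 were higher and 1 lower in WT (28.6% called) and 1 was higher in KO (7.14%), and Eprs was called in both (0.39 ± 0.08 SE, adjusted p = 0.0017 and 0.29 ± 0.09 SE, adjusted p = 0.0285), the KO call being lost without KO PRA replicate 2 or 3 or KO vehicle replicate 3 or 4 (adjusted p = 0.0665 to 0.144).

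Among 26 other degradation genes 6 were higher and 1 lower in WT (26.9% called, against 22.1% of all genes), and 4 and 1 in KO (19.2%, against 16.3%). Ube2g2, a ubiquitin-conjugating enzyme that works with ER ligases, rose from 40.4 ± 2.50 to 94.7 ± 12.3 CPM in WT (SD, n = 4 each; 1.23 ± 0.12 SE, adjusted p = 5.37e-07) and by 1.14 ± 0.13 SE, adjusted p = 5.64e-06 in KO. Ufd1, a cofactor of the p97 segregase, rose in WT (0.37 ± 0.07 SE, adjusted p = 0.000758) and KO (0.35 ± 0.08 SE, adjusted p = 0.00306), and Erlin1 fell in KO (-0.73 ± 0.12 SE, adjusted p = 0.000182). Erlin1 was also lower in WT PRA than in normal livers (-0.51 ± 0.11 SE, adjusted p = 0.000995). No gene of this degradation list passed the interaction, so no genotype difference in the response of Erlin1 was called. Of 30 ER to Golgi transport genes 5 were higher and 1 lower in WT (20% called) and 1 was higher in KO (3.33%), called shares under those of all genes. The share called higher was 16.7% in WT, over the 9.74% of all genes, and 3.33% in KO, under their 7.96%. Kdelr2, the receptor that returns chaperones to the ER, rose in WT (0.51 ± 0.09 SE, adjusted p = 0.000342) and KO (0.44 ± 0.10 SE, adjusted p = 0.00331). In ER import and glycosylation 6 of 34 were higher and 1 lower in WT (20.6% called) and 1 and 1 in KO (5.88%), called shares also under all genes. Its share called higher was 17.6% in WT, against 9.74%, and 2.94% in KO, against 7.96%. Mogs, the glucosidase that starts N-glycan trimming, fell in both genotypes (-0.39 ± 0.09 SE, adjusted p = 0.0029 and -0.46 ± 0.09 SE, adjusted p = 0.00212).

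Of 29 other ER folding factors 4 were higher in WT, and 3 were higher and 1 lower in KO (13.8% called in each, against 22.1% and 16.3% of all genes). The share called higher was 13.8% in WT and 10.3% in KO, against 9.74% and 7.96% of all genes. Qsox1, a sulfhydryl oxidase, rose in WT (0.73 ± 0.10 SE, adjusted p = 1.70e-05) and was lower in KO PRA than in WT PRA (-0.61 ± 0.11 SE, adjusted p = 0.00147). Pdia5, a disulfide isomerase, was lower in KO PRA than in WT PRA by -0.91 ± 0.14 SE, adjusted p = 0.000601. Its interaction was -0.88 ± 0.19 SE, adjusted p = 0.0361 and passed in 10 of 23 other settings, failing at adjusted p-values of up to 0.115. No other gene of this list passed the interaction, so no genotype difference in the response of Qsox1 was called. Of 20 other sensors and ER-bound factors 2 were higher in WT (10%, against 9.74% of all genes called higher) and none was called in KO. Creb3l2, an ER-bound transcription factor released by proteolysis like ATF6, rose in WT (0.87 ± 0.16 SE, adjusted p = 0.000437) and was lower in KO PRA than in WT PRA (-1.05 ± 0.17 SE, adjusted p = 0.00103). No gene of its list passed the interaction, so no genotype difference in the response of Creb3l2 was called. Median log2 fold changes of the 7 lists were 0.08 to 0.16 in WT and -0.0033 to 0.22 in KO, against -0.03 and -0.0043 over all genes.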

How the data were processed

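Whole-liver poly(A) RNA of 19 samples in 5 groups was read from the deposited table of raw read counts per gene. Per the submitters' processing notes, the authors used HISAT2 2.2.1, SAMtools 1.13, HTSeq 0.11.3 and GRCm39; no source used here gives the annotation release, strand setting or order of steps, so reads of overlapping antisense genes cannot be told apart. The counts in each library's own deposited file equalled the series table in 19 of 19, and 66.95% to 71.71% of the entries lay in genes. Depth was 32073865 to 74041441 counts, and a count of 0 allows up to 3 counts, or 0.0405 to 0.0935 CPM (counting error only).

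Of 55416 gene identifiers 52083 were paired with a symbol. Ddit3 has 2 identifiers, and the one with counts was used. Levels are TMM-scaled CPM. Values per kilobase use GENCODE M21 exon-union lengths and serve only to compare genes. The test was edgeR 4.0.16 (R 4.3.3) quasi-likelihood on filterByExpr genes, with 1 model of the 5 groups over all 19 libraries and Benjamini-Hochberg adjustment within each of 7 comparisons. A threshold of 0.05 was used, and the steps were tested on simulated data. Alternatives were other scalings and filters, DESeq2 1.42.0, limma 3.58.1 voom with sample weights, a 1.5-fold threshold test, the compared groups alone, a replicate block and each library left out.

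The members and lists were chosen with earlier results of these data known. Values in every library are given for up to 4 members per arm with the smallest p in WT PRA against WT vehicle, up to 2 in WT vehicle against normal, up to 2 in KO PRA against KO vehicle, and any that passed between genotypes or in the interaction. Values of Pdia4, Derl1 and Syvn1 follow from this rule. Other pathway genes named are among up to 3 per list and comparison that passed, averaged at least 2 CPM and did not overlap. Creld2, Trib3, Asns and other members without values in every library are given by range or test, and ER stress element II, TGATGNAA and TGACGTGG were searched after the data were seen. One listed gene, Tusc3, was not analysed here. Every pair of libraries within a group differed by more than sampling noise (chi-square per degree of freedom of 22.7 or more), so none was counted as deposited more than once.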

Additional observations from a re-analysis of the deposited data

Results flagged for a closer look

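Within groups of 4, each member's highest and lowest library was compared with the rest by Dixon's ratio. Of 128 pairs of gene and group, 11 (8.59%) had a library set apart, and chance sets about 1 in 20 apart.

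Normal replicate 2 accounted for 6 of the 11, each as the highest of its group. Hspa5 was at 935 CPM there against 529 to 555 in the other normal livers, Manf at 141 against 74.7 to 85.7, Creld2 at 83.5 against 25.7 to 33.1 and Pdia4 at 237 against 161 to 164. Syvn1 was at 165 against 82.9 to 95.8 and Ddit3 at 11.4 against 5.69 to 5.98 CPM. Hspa5, Manf, Creld2 and Syvn1 of these lay below normal in all 4 WT vehicle libraries, and so did Ddit3.

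Pdia4 in WT vehicle replicate 2 was low, at 136 CPM against 161 to 163. Pdia6 in WT vehicle replicate 3 was high, at 295 against 225 to 236. KO vehicle replicate 2 was high for Canx (280 CPM against 206 to 213) and Sel1l (90.7 against 69.0 to 69.6). Aldh18a1 in WT PRA replicate 1 was at 1.26 CPM against 0.69 to 0.75.

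The response of Xbp1 to PRA differed between WT and KO in the interaction test, by -1.45 ± 0.26 SE on the log2 scale (adjusted p = 0.0123). It was 0.64 in WT, with 4 of 4 PRA libraries above all vehicle libraries, and -0.81 in KO, with 3 of 3 PRA libraries below 3 of the 4 vehicle libraries.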

How the results depend on the processing

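Of 13 members called in WT PRA against vehicle, 2 passed the 1.5-fold threshold test and 7 to 13 passed with a library left out. For KO PRA against vehicle (5) the numbers were 2 under the 1.5-fold test, 9 in voom, and 5 to 8 with a library left out. Voom added Dnajc3, Edem1, Atf4 and Ern1 there. The interaction (1) gave 0 under the 1.5-fold test and 1 to 1 otherwise. KO against WT PRA (1) gave 2 in DESeq2, voom and the compared groups alone, and 1 to 2 with a library left out. KO against WT vehicle stayed at 0 to 0. WT vehicle against normal (5) gave 0 under the 1.5-fold test, 2 in the compared groups alone, and 2 to 5 with a library left out. WT PRA against normal (11) gave 1 under the 1.5-fold test and 10 to 12. Sdf2l1 in WT vehicle against normal turned from -0.29 to 0.027 without Normal replicate 2, and ranged from -0.48 to 0.027 with a library left out. A further 47 values of 25 results, and 135 of 54 with a library left out, changed sign from a reported value smaller than its SE, reaching up to 0.56 and 0.44 in size.

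Over all genes the 1.5-fold test called 625, 417, 17, 81, 4, 13 and 925 in the order above (main 3437, 2544, 74, 591, 11, 311 and 4421). DESeq2 called 178 in the interaction, 927 in KO against WT PRA, 52 in KO against WT vehicle and 647 in WT vehicle against normal. Voom called 21 and 648 in the last 2, and the compared groups alone 7 and 154. The order of comparisons is that of the first paragraph. The cause of these moves was not tested.

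Same-numbered libraries of different groups had correlations of deviations of -0.25 to 0.19 (median 0.0054), over 0.1 in 9 of 36 pairs. Libraries with other numbers had -0.22 to 0.27 (median -0.0077), over 0.1 in 16 of 108 pairs. These values cannot tell whether same-numbered libraries were handled together, and the main model did not pair them. With a replicate block 11 members passed in WT PRA against vehicle, Dnajb11 (adjusted p = 0.0597) and Atf4 (0.0593) dropping out, and no other member's call changed. Low counts limit members such as Aldh18a1 and Derl3, and the 3 KO PRA libraries limit the comparisons that use them.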

Other observations

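Summed over each arm, CPM is led by the most abundant members. The 14 chaperones summed to 3393 to 4852 CPM in normal, 3040 to 3669 in WT vehicle, 3627 to 4382 in WT PRA, 3596 to 4552 in KO vehicle and 3960 to 4784 in KO PRA livers, and PRA and vehicle overlapped in both genotypes. The 6 degradation genes summed to 648 to 720 CPM in WT vehicle and 972 to 1160 in WT PRA, and to 663 to 718 and 1144 to 1360 in KO, without overlap in either genotype. The 4 sensors and transcription factors summed to 236 to 265 CPM in WT vehicle and 313 to 380 in WT PRA, but to 185 to 264 and 165 to 188 in KO. Xbp1 is the largest part of that sum in every library. The 8 integrated stress response genes summed to 143 to 188 CPM in WT vehicle and 228 to 254 in WT PRA, and to 168 to 192 and 208 to 280 in KO, without overlap in either genotype. No test was run on these sums.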
